A study of Mus musculus with 12 samples.

Results

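The genes of Fc receptor and ITAM signalling were followed in differentiated mouse neurospheres on 2-color arrays. The set held 10 genes, namely the Fc receptors Fcgr1, Fcgr2b and Fcgr3, the signalling chain Fcer1g, the kinases Syk and Lyn, the adaptor Blnk, the exchange factor Vav1, the phosphatase Ptpn6 and the receptor Lilrb4a. A probe was taken as a member where it was no control probe and its RefSeq identifier belonged to one of these genes, which gave 12 probes of the 55681 on the array and 10 of the 20887 genes with a named probe. Vav1 and Lilrb4a had 2 probes each, the other genes 1, and the Fcgr2b probe was printed on 10 spots.

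Neurospheres, which are floating aggregates of neural progenitors, came from the telencephalon of C57BL/6 embryos at day 13 and were differentiated for 7 days. WT cells were wild type and untreated. APP_WT cells carried APPswe/PS1dE9, a pair of transgenes (a mutated APP that joins mouse and human sequence, and a mutated human presenilin) whose expression is directed to neurons of the central nervous system, and were untreated, while BK_APP and HOE_APP were APPswe/PS1dE9 cells that received 1 µM bradykinin (BK), an agonist of the B2 kinin receptor, or 1 µM HOE-140, an antagonist of that receptor, on days 0, 3 and 6 of differentiation. RNA of day 7 was hybridized on 12 arrays, 4 to a comparison. APP_WT was set against WT, and BK_APP and HOE_APP were each set against APP_WT, each array holding 1 replicate of both conditions, with swapped dyes. Both treatments were followed in APPswe/PS1dE9 cells, and treated WT cells were not analysed here. Between 51.2% and 60.3% of the spots of an array were well above background in some channel. The 8 arrays of the treatments shared a slide that held none of the arrays with WT. The channel labels of the HOE_APP arrays contradict each other, so that the direction of every HOE_APP value is likely only. The log2 ratios that the authors deposited for these arrays run in this likely direction, if their titles name the numerator first. The labels call the replicates biological, without naming the litters or cultures. A p-value measures the spread between these arrays.

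Fc receptors bind the constant part of antibodies that coat a target. The activating receptors of phagocytes pass the signal on through a chain with an ITAM, a stretch with a pair of tyrosines that kinases of the SRC family phosphorylate. SYK docks on the phosphorylated ITAM, phosphorylates adaptors such as BLNK and brings in exchange factors such as VAV1, which act on RAC and the actin skeleton. Receptors with an ITIM, a related inhibitory motif, recruit phosphatases such as the product of Ptpn6 and damp the same chain of events. In the brain this machinery is known from microglia, and several of its parts are shared with B cells, mast cells and other leukocytes.

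The promoters of genes active in microglia and other myeloid cells often hold the core letters GAGGAA bound by the factor PU.1, and the stretches just before the transcription starts are shown here because several of these genes were higher in the same cells. RefSeq windows (GRCm38.p6) were found for 8 of the 10 genes, all but Lyn and Lilrb4a, and Fcgr3 and Syk had 2 starts each. Each run below is the last 100 bases before the start, 5′ to 3′ on the strand of the gene, and capitals mark GAGGAA, or TTCCTC where it lies on the other strand, and in Vav1 the longer GAGGAAGT that contains it.
Vav1, chr17:57279000-57279099, plus strand: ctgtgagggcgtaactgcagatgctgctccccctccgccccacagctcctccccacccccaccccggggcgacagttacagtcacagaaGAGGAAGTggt
Syk, second start, chr13:52596782-52596881, plus strand: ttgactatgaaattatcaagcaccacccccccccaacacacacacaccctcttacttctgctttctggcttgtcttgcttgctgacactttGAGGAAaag
Fcgr1, chr3:96293970-96294069, minus strand: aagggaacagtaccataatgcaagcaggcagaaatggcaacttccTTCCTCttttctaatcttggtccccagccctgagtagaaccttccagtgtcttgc
Fcgr3, first start, chr1:171059404-171059503, minus strand: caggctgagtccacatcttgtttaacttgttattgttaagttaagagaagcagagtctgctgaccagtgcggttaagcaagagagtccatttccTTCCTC
Fcer1g, chr1:171234350-171234449, minus strand: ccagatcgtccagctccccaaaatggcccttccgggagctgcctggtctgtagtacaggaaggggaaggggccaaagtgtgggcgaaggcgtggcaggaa
Blnk, chr19:40994222-40994321, minus strand: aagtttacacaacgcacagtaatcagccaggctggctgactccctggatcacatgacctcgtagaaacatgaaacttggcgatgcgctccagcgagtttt
GAGGAA on either strand was in the 300-base windows (250 bases before to 50 after the start) of 4 of the 8 genes and in those of 31.3% of all 27025 genes with a window. It began 11 bases before the start in Vav1, 9 bases before the second start of Syk, 55 bases before the start of Fcgr1 and 6 bases before the first start of Fcgr3. GAGGAAGT or its complement ACTTCCTC was in the window of Vav1 alone among the members and in those of 3.69% of all genes. The windows of Fcer1g, Blnk, Fcgr2b and Ptpn6, and the first start of Syk, held neither. A match of letters does not show a bound site, and the genes with and without it are set beside their values below only by name.

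APPswe/PS1dE9 neurospheres were compared with WT neurospheres to learn how the set stood before any treatment. The signalling chain Fcer1g, the adaptor Blnk, the exchange factor Vav1, the phosphatase Ptpn6 and the inhibitory receptor Lilrb4a were higher in APP_WT, with log2 fold changes from 0.87 to 2.23. The kinase Syk did not pass the test, and the 3 immunoglobulin G receptors themselves and Lyn were too dim to be tested. A probe entered the test if, in some comparison, 3 or 4 of the arrays had it well above background in one and the same condition, and 7 of the 12 member probes, of 6 genes, did so. Of these 6 genes, 5 were higher at an adjusted p below 0.05, where 11.6% of the 29357 tested probes were called higher and 7.00% lower. The median of the 6 was 1.49 and that of all tested probes 0.00. These counts describe the set and do not speak for it, because Blnk, Ptpn6 and Lilrb4a, and the second probe of Vav1, were not well above background on any WT array and entered the test through the APPswe/PS1dE9 cells only. Levels below are log2 intensities of one channel, and fold changes are log2 ratios formed within an array.

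**Figure D1:**
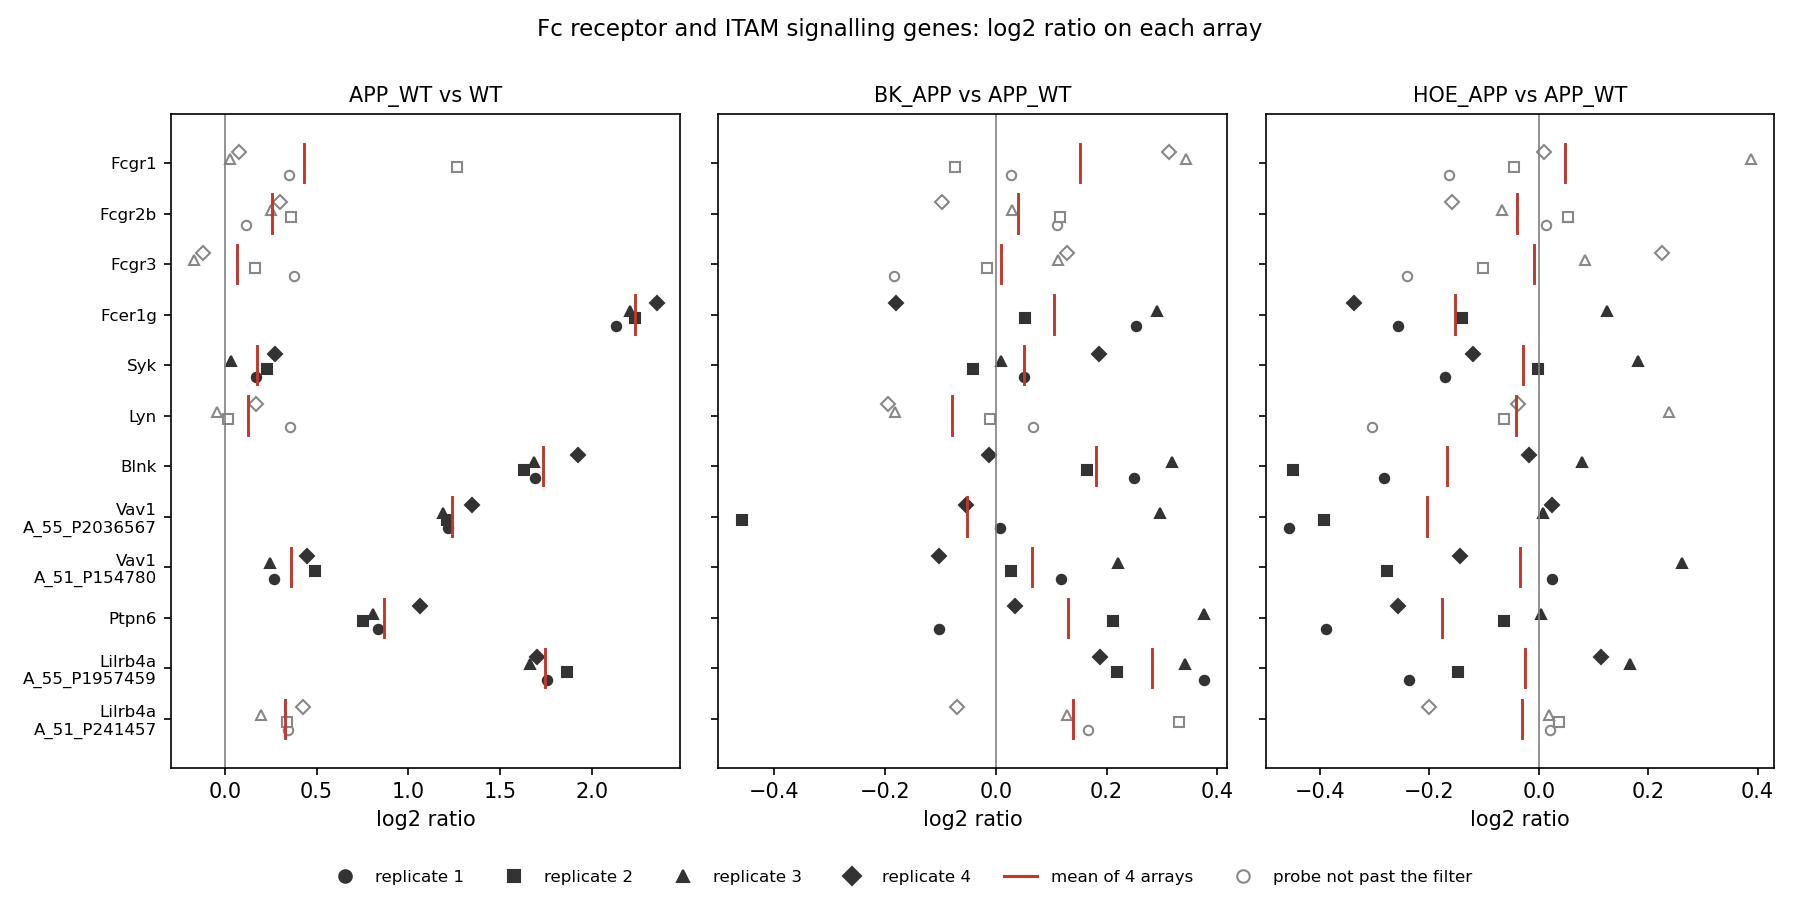
Log2 ratio (horizontal axis) of each member probe (vertical axis) on each array, with a panel for each comparison and its own axis range. Symbols stand for replicates 1 to 4, red lines for the mean of 4 arrays and open grey symbols for probes that did not pass the filter. In APP_WT versus WT Fcer1g lies at 2.13 or above on all 4 arrays, while under both treatments the points of most probes lie on both sides of 0.

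Among the Fc receptors and the signalling chain, Fcer1g was the gene that could be tested. Fcer1g encodes the common gamma chain, the ITAM-bearing partner through which activating Fc receptors signal. Its log2 ratio of APP_WT over WT was 2.13, 2.24, 2.21 and 2.35 on replicates 1 to 4, and its level was 9.20 to 9.62 in APP_WT and 7.07 to 7.33 in WT. The ranges did not overlap, and the probe was well above background on all 4 arrays in both conditions. How many of all tested probes had ranges apart was not counted. The log2 fold change was 2.23 ± 0.09 (SE, n = 4), or 4.70-fold, with an adjusted p of 1.29e-07.

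The receptors for immunoglobulin G gave values near the background of the arrays. Fcgr1, the high-affinity activating receptor for immunoglobulin G, had ratios of 0.35, 1.26, 0.03 and 0.08, and was well above background in APP_WT on replicate 2 alone. The 4 ratios had an SD of 0.57. Without the filter the log2 fold change of Fcgr1 was 0.43 ± 0.12 (SE, n = 4; adjusted p 0.0532), and it ranged from 0.15, without replicate 2, to 0.56 when 1 replicate was left out. Its mean therefore rested on the one array on which it was measured. Fcgr3, a low-affinity activating receptor, had ratios of 0.38, 0.16, −0.17 and −0.12, with both signs present, and 0.06 ± 0.06 (SE, n = 4; adjusted p 0.596) without the filter. Fcgr2b, the inhibitory receptor of the family, which carries an ITIM of its own, had ratios of 0.11, 0.36, 0.25 and 0.30. All 4 were above 0, yet none of the channels of the 12 arrays had this probe well above background. Its value without the filter was 0.26 ± 0.05 (SE, n = 4; adjusted p 0.0157). For these 3 receptors the arrays thus gave no measured level in WT cells to set against APP_WT, apart from 1 WT array for Fcgr3. Fcgr2b, Fcgr3 and Fcer1g are close neighbours on chromosome 1 of the reference, and of these 3 only Fcer1g passed the filter.

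Of the kinases, Syk was tested and did not pass, and Lyn was too dim. Syk, which docks on phosphorylated ITAMs, had ratios of 0.17, 0.23, 0.03 and 0.27, and levels of 6.93 to 7.00 in APP_WT and 6.73 to 6.90 in WT. Each array had it higher in APP_WT, as was the case for 15.1% of all tested probes. The log2 fold change of 0.18 (95% interval 0.03 to 0.32) had an adjusted p of 0.0924 and an unadjusted p of 0.0225, and 31.8% of the tested probes had an unadjusted p below 0.05. Lyn, the SRC family kinase that phosphorylates ITAMs and ITIMs, had ratios of 0.36, 0.02, −0.04 and 0.17. In this comparison it was well above background in APP_WT on replicate 2 alone and in no WT channel, and its value without the filter was 0.12 ± 0.07 (SE, n = 4; adjusted p 0.387), and 1.31 with the processed signals of the scanner software.

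Of the adaptors and exchange factors, Blnk stood out. The BLNK protein is a scaffold that SYK phosphorylates, best known from B cells and also present in macrophages. Its ratios were 1.69, 1.63, 1.69 and 1.93, and its level was 7.89 to 8.46 in APP_WT and 6.20 to 6.56 in WT, where no array had it well above background. By a bound for the background, Blnk was at least 3.33-fold higher in APP_WT. Its fitted log2 fold change was 1.73 ± 0.07 (SE, n = 4, 95% interval 1.59 to 1.88, adjusted p 1.07e-07). A bound of this kind sets the mean of the brighter condition against the dimmer one, with each dim array raised, where needed, to the lowest signal that passed as above background there. It does not cover the spread between arrays, which the 95% interval gives. For Blnk the WT mean stayed at 6.41, so that the bound is the fitted value itself.

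Vav1 encodes an exchange factor for RAC proteins that is largely restricted to blood cells, and its 2 probes gave different sizes. The probe A_55_P2036567 had ratios of 1.21, 1.21, 1.19 and 1.35, with levels of 8.39 to 8.66 in APP_WT and 7.18 to 7.37 in WT, and was well above background on all 4 arrays in both conditions. The probe A_51_P154780 had ratios of 0.27, 0.49, 0.24 and 0.45, and was above background on 2 of the 4 APP_WT arrays and on no WT array. Both probes were higher in APP_WT on every array, but on the dim probe the levels overlapped (6.57 to 6.96 in APP_WT, 6.22 to 6.72 in WT). The first had a log2 fold change of 1.24 ± 0.08 (SE, n = 4; adjusted p 2.37e-06), or 2.36-fold. For the second the fitted value was 0.36 ± 0.08 (SE, n = 4; adjusted p 0.013), and the call was lost without replicate 2 (0.31, adjusted p 0.117) or without replicate 4 (0.31, adjusted p 0.0585). Both probes carry one and the same RefSeq identifier, and the stretches they match were not analysed here, so whether they read different transcripts was not tested.

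Ptpn6 and Lilrb4a, both from the inhibitory side of the pathway, were higher as well. Ptpn6 encodes SHP-1, the tyrosine phosphatase that ITIM receptors recruit. Its ratios were 0.84, 0.76, 0.81 and 1.06, with levels of 6.79 to 7.28 in APP_WT, above background on 3 arrays, and 6.03 to 6.39 in WT, above background on none. By the bound for the background, Ptpn6 was at least 1.78-fold higher in APP_WT. Its fitted log2 fold change was 0.87 ± 0.08 (SE, n = 4, 95% interval 0.68 to 1.05, adjusted p 5.67e-05). Lilrb4a, an ITIM receptor of myeloid cells, had on the probe A_55_P1957459 ratios of 1.75, 1.87, 1.66 and 1.70, with levels of 7.84 to 8.24 in APP_WT and 5.99 to 6.54 in WT, again above background on no WT array. By the bound, which is again the fitted value itself, this probe was at least 3.35-fold higher in APP_WT. The fitted log2 fold change was 1.75 ± 0.05 (SE, n = 4, 95% interval 1.63 to 1.86, adjusted p 2.14e-08). The other Lilrb4a probe, A_51_P241457, had ratios of 0.34, 0.34, 0.20 and 0.43 but was above background on 1 APP_WT array only, and its fitted value without the filter was 0.33 ± 0.06 (SE, n = 4; adjusted p 0.00889). Both probes thus had the same sign on every array and differed in size and brightness. Lilrb4a has a near-identical neighbour gene, Lilr4b, and which of the pair a probe reads was not tested.

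The size of these differences changed with the background correction, while their direction and calls did not. With the processed signals of the scanner software the log2 fold changes of the members called rose to 2.91 for Fcer1g, 3.69 for Blnk, 1.69 for Vav1 (A_55_P2036567), 1.38 for Vav1 (A_51_P154780), 2.93 for Ptpn6 and 4.40 for Lilrb4a. The offset of 50 used here pulls the ratios of dim probes towards 0, and the dim WT channel is where Blnk, Ptpn6 and Lilrb4a lay. Fcer1g, Blnk, Vav1, Ptpn6 and Lilrb4a were called higher under each scaling and background setting that was tried.

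**Figure D2:**
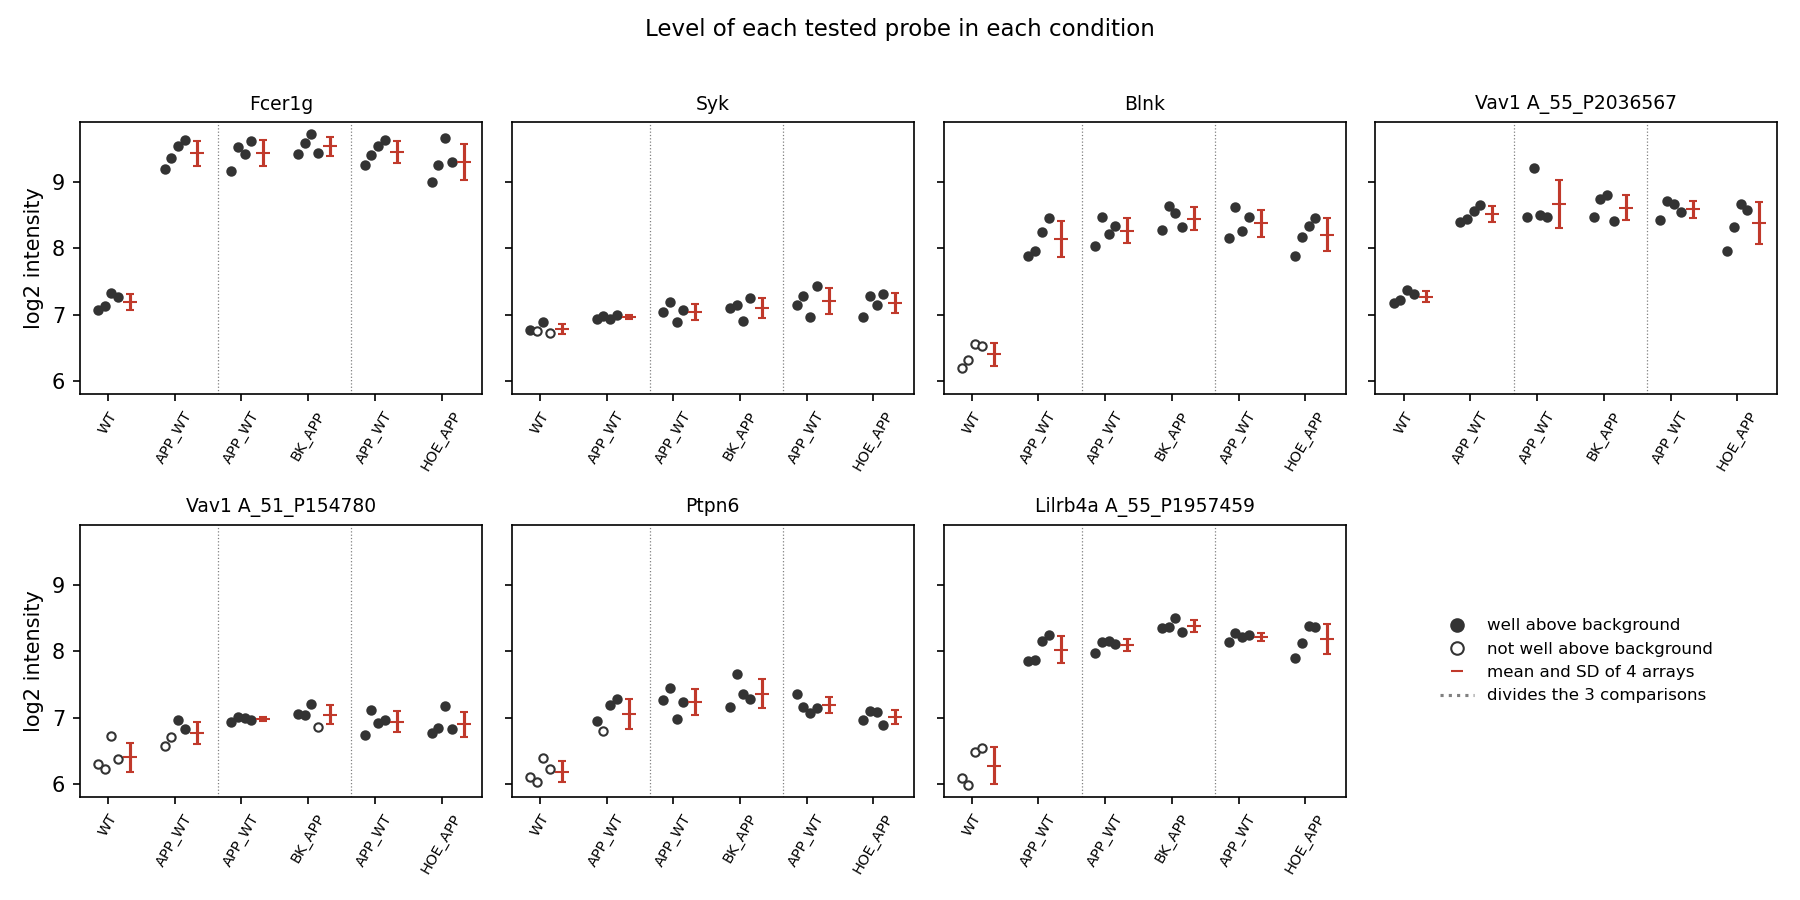
Level (vertical axis, log2 intensity per channel) of each tested member probe in both conditions of each comparison, with dotted lines between the 3 comparisons. Points are arrays, filled where the spot was well above background and open where it was not, and red marks give the mean and SD of 4 arrays. For Fcer1g, Blnk, Vav1 (A_55_P2036567), Ptpn6 and Lilrb4a the WT points lie below all others of the panel.

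Levels over all conditions kept WT apart from the rest for Fcer1g, Blnk, Lilrb4a, Ptpn6 and, on 1 of its 2 probes, Vav1. How many of all tested probes did the same, or kept conditions apart as in the other cases named below, was not counted. Blnk, Ptpn6 and Lilrb4a passed the filter through APPswe/PS1dE9 cells only, so a low WT level was built into their choice. Values of HOE_APP and of the APP_WT channels of its arrays are given in the likely direction and would change places in the opposite one. Fcer1g had mean levels of 7.20 ± 0.12 in WT, 9.43 ± 0.19, 9.43 ± 0.20 and 9.45 ± 0.17 in APP_WT of the 3 comparisons, 9.30 ± 0.27 in HOE_APP and 9.54 ± 0.14 in BK_APP (SD, n = 4 each). Blnk had 6.41 ± 0.17 in WT, 8.14 ± 0.26, 8.27 ± 0.19 and 8.38 ± 0.21 in APP_WT, 8.21 ± 0.25 in HOE_APP and 8.45 ± 0.17 in BK_APP. WT was the lowest for both genes, and HOE_APP would have 9.45 and 8.38 in the opposite direction. These SDs include shifts between arrays, so each treatment is compared with APP_WT further below through the ratios within an array. Lilrb4a (A_55_P1957459) had 6.28 ± 0.28 in WT, 8.02 ± 0.20, 8.09 ± 0.09 and 8.21 ± 0.06 in APP_WT, 8.19 ± 0.23 in HOE_APP and 8.37 ± 0.09 in BK_APP. Here the BK_APP arrays (8.29 to 8.50) did not overlap the APP_WT channels of the same arrays (7.97 to 8.16). Ptpn6 had 6.19 ± 0.15 in WT, 7.05 ± 0.23, 7.23 ± 0.19 and 7.18 ± 0.12 in APP_WT, 7.01 ± 0.10 in HOE_APP and 7.36 ± 0.21 in BK_APP. Vav1 (A_55_P2036567) had 7.27 ± 0.08 in WT, 8.51 ± 0.12, 8.66 ± 0.36 and 8.59 ± 0.13 in APP_WT, 8.38 ± 0.32 in HOE_APP and 8.61 ± 0.19 in BK_APP. For these 2 genes as well, WT was the lowest. Each treatment overlapped the APP_WT channels of its own arrays, while for Ptpn6 the HOE_APP arrays (6.89 to 7.10) lay below the BK_APP arrays (7.16 to 7.66). Syk had 6.79 ± 0.07 in WT and means from 6.97 to 7.21 elsewhere, and its highest WT array (6.90) overlapped the lowest APP_WT channel of the BK_APP arrays (6.89).

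BK_APP was compared with APP_WT to see whether activation of the B2 receptor moved the set further. No member passed the adjusted test, as no probe of the array did (0% of 29357). Of the tested probes 4.46% had an unadjusted limma p below 0.05, and 1.82% were called by SAM and rank products at unadjusted thresholds. The study names these methods too, but they were run anew here, on ratios normalized in another way. Lilrb4a (A_55_P1957459) had ratios of BK_APP over APP_WT of 0.38, 0.22, 0.34 and 0.19, all 4 above 0, as 5.06% of the tested probes had. Its log2 fold change was 0.28 (95% interval 0.17 to 0.39; unadjusted p 0.000207, adjusted p 0.967). Blnk had ratios of 0.25, 0.17, 0.32 and −0.01 and a log2 fold change of 0.18 (0.04 to 0.32; unadjusted p 0.019, adjusted p 0.967). Of the 7 tested member probes 6 had a log2 fold change above 0, as 47.4% of all tested probes had. Blnk and Lilrb4a, 2 of the 6 genes, were below an unadjusted p of 0.05 and were called by SAM and rank products, and both failed the correction over all probes. The paper lists BLNK, LILRB4 and VAV1 among the genes overexpressed in BK_APP, whereas Vav1 was called here on neither probe. That list comes from the same arrays, and the members were chosen with earlier results of these data known. The counts of members therefore describe the set and do not speak for it.

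The remaining members had intervals that included 0 under BK. Fcer1g had ratios of 0.25, 0.05, 0.29 and −0.18 and a log2 fold change of 0.10 (−0.09 to 0.30), which turned to −0.01 without replicate 3. Ptpn6 had −0.10, 0.21, 0.38 and 0.03, with 0.13 (−0.06 to 0.32). Syk had 0.05, −0.04, 0.01 and 0.19, with 0.05 (−0.09 to 0.20). None of these 3 had 1 sign on all arrays. Vav1 gave opposite signs on its 2 probes. A_55_P2036567 had ratios of 0.01, −0.46, 0.30 and −0.05 and a log2 fold change of −0.05 (−0.23 to 0.12), and A_51_P154780 had 0.12, 0.03, 0.22 and −0.10 and a log2 fold change of 0.07 (−0.12 to 0.25). The ratios had an SD of 0.31 on the first probe and of 0.14 on the second. Both intervals covered the value of the other probe, and the first probe turned to 0.06 without replicate 2 and to 0.04 without replicate 4. On replicate 2 its APP_WT channel reached 9.20, against 8.47 to 8.50 on the other arrays. Among the dim probes, Fcgr1 had ratios from −0.07 to 0.34, Fcgr2b from −0.10 to 0.12, Fcgr3 from −0.18 to 0.13, Lyn from −0.19 to 0.07 and the other Lilrb4a probe from −0.07 to 0.33.

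HOE_APP was compared with APP_WT to see whether blocking the receptor had an effect of its own. Here too no member passed the adjusted test and no probe of the array did (0% of 29357). Of the tested probes 5.02% were below an unadjusted limma p of 0.05. SAM and rank products, as run here, called 2.31%, none of them a member. The paper, with its own run of these methods, lists PTPN6 among the genes underexpressed in HOE_APP. All 7 tested member probes had a log2 fold change below 0, in the likely direction, where 50.1% of all tested probes were above 0. None of the 7 was below 0 on all 4 arrays, as 4.98% of the tested probes were. As under BK, these counts describe the set only. Blnk had ratios of HOE_APP over APP_WT of −0.28, −0.45, 0.08 and −0.02 and a log2 fold change of −0.17 (95% interval −0.31 to −0.02; unadjusted p 0.0269, adjusted p 0.924). Vav1 (A_55_P2036567) had −0.46, −0.39, 0.01 and 0.02, with −0.20 (−0.38 to −0.03; unadjusted p 0.0251, adjusted p 0.924). The 4 ratios had an SD of 0.24 for Blnk and of 0.26 for this Vav1 probe. In both, replicates 1 and 2, which have HOE_APP in Cy5, gave the low ratios and replicates 3 and 4, with swapped dyes, gave ratios close to 0 or above. The other Vav1 probe had 0.02, −0.28, 0.26 and −0.14, with −0.03 (−0.22 to 0.15), and turned to 0.04 without replicate 2 and to 0.07 without replicate 4. Thus the probes had 1 sign in APP_WT versus WT, opposite signs under BK and 1 sign, of unequal size, under HOE-140.

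The other members had intervals that included 0 under HOE-140. Fcer1g had −0.26, −0.14, 0.13 and −0.34, with a log2 fold change of −0.15 (−0.35 to 0.04). Ptpn6 had −0.39, −0.06, 0.01 and −0.26, with −0.18 (−0.36 to 0.01). Lilrb4a (A_55_P1957459) had −0.24, −0.15, 0.17 and 0.11, with −0.03 (−0.14 to 0.09), and turned to 0.02 with arrays centered on the median. Syk had −0.17, 0.00, 0.18 and −0.12, with −0.03 (−0.17 to 0.12). The intervals excluded changes of the size between the genotypes for Fcer1g, Ptpn6 and Lilrb4a. The dim probes had ratios from −0.16 to 0.39 for Fcgr1, −0.16 to 0.05 for Fcgr2b, −0.24 to 0.23 for Fcgr3, −0.30 to 0.24 for Lyn and −0.20 to 0.04 for the other Lilrb4a probe.

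**Figure D3:**
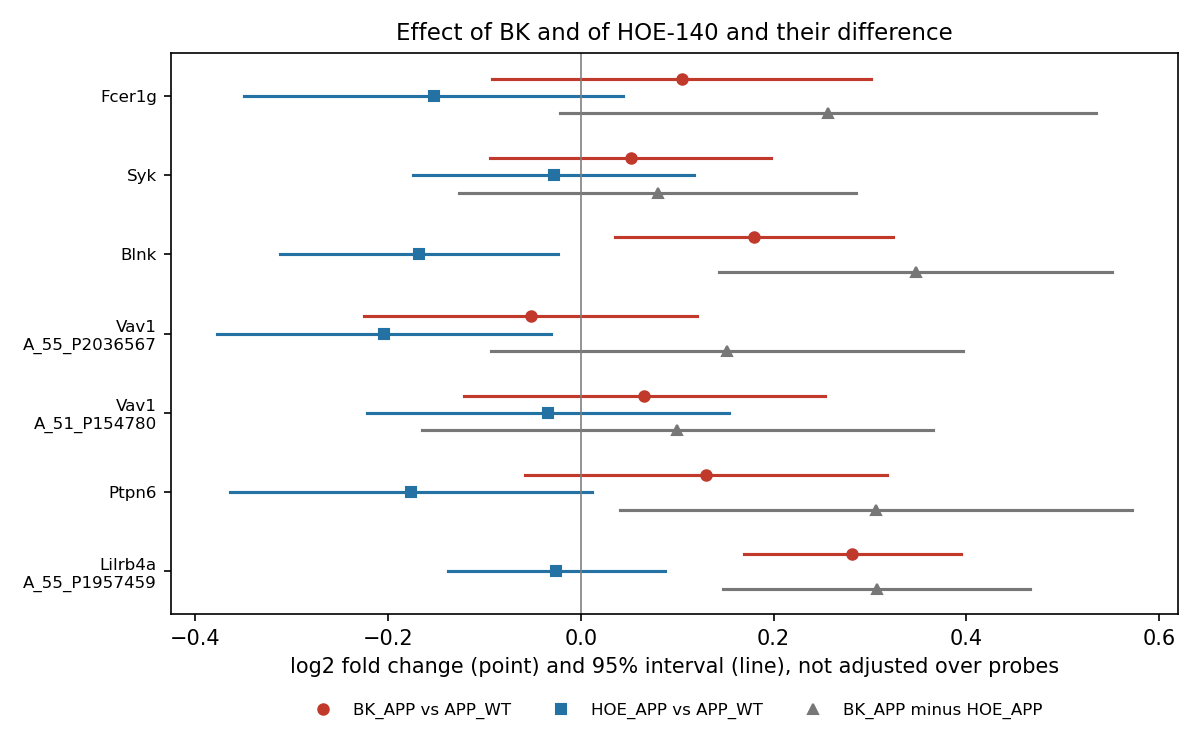
Log2 fold change (horizontal axis; points, with 95% intervals as lines that are not adjusted over probes) of each tested member probe (vertical axis) for BK_APP versus APP_WT, HOE_APP versus APP_WT and the difference of both, each from 4 arrays a comparison. The intervals of the difference lie above 0 for Blnk, Ptpn6 and Lilrb4a and include 0 for the other probes.

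The effect of BK less that of HOE-140 was tested in the same model, in which both comparisons share the untreated condition. It was above 0 for all 7 tested member probes, where 48.6% of all tested probes were above 0, and no probe of the array passed the adjusted test (0% of 29357). The difference was 0.35 for Blnk (95% interval 0.14 to 0.55; unadjusted p 0.00332), 0.31 for Lilrb4a (0.15 to 0.47; unadjusted p 0.00147) and 0.31 for Ptpn6 (0.04 to 0.57; unadjusted p 0.0279), each with an adjusted p of 1. These 3 of the 6 genes had an unadjusted p below 0.05, against 2.50% of the tested probes. All 3 are in the paper's lists of genes moved by a treatment, which come from these same arrays. The members were chosen with earlier results of these data known, so these counts describe the set and do not speak for it. For Fcer1g the difference was 0.26 (−0.02 to 0.53), for Vav1 0.15 (−0.09 to 0.40) and 0.10 (−0.17 to 0.37) on its probes, and for Syk 0.08 (−0.13 to 0.29). Arrays of BK_APP and HOE_APP with the same number deviated together, and with their 4 differences fitted as pairs the unadjusted p was 0.000613 for Blnk, 0.000604 for Ptpn6, 0.00148 for Lilrb4a and 0.00555 for Fcer1g, with adjusted p-values of 0.287 to 0.433 and 8.57% of the probes below an unadjusted 0.05. These differences rest on the likely direction of the HOE_APP arrays. With the opposite sign the difference would be 0.01 for Blnk, 0.26 for Lilrb4a, −0.05 for Ptpn6, −0.05 for Fcer1g, −0.26 for Vav1 (A_55_P2036567), 0.03 for its other probe and 0.02 for Syk.

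The rest of the pathway was followed on lists of 109 other genes, 107 of them on the array and 68 tested. In APP_WT versus WT 23 of the 68 were higher and 3 lower, with a median log2 fold change of 0.06. Of all tested probes 11.6% were called higher and 7.00% lower. Some of the genes called higher, such as Cd72, were well above background on no WT array and entered the test through the APPswe/PS1dE9 cells only. The split of the 68 moved with the scaling, to 19 higher and 5 lower with median centering, 22 and 8 with the processed signals and 17 and 8 of 59 in the deposited log2 ratios. Most of these genes (42 of 68) were not called.

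Of the other Fc receptors 4 of 7 tested genes were higher and none lower. Fcrls, an Fc receptor-like gene expressed by microglia, had a log2 fold change of 1.16 ± 0.07 (SE, n = 4; adjusted p 1.92e-06), and Fcgrt, the neonatal Fc receptor that recycles immunoglobulin G, 0.81 ± 0.10 (adjusted p 0.000297). At the lower end Fcrl5 had 0.05 and Fcer2a, the low-affinity receptor for immunoglobulin E, 0.09. Of the other ITAM adaptors and their receptors 3 of 9 were higher and none lower. Tyrobp, which encodes the ITAM adaptor DAP12 of microglia, had 2.22 ± 0.10 (adjusted p 2.01e-07) and Trem2, a receptor that signals through it, 1.60 ± 0.07 (adjusted p 2.72e-07). Clec1b had −0.05 and Trem1 −0.02.

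Among the other SRC, SYK and TEC family and PI3 kinases 4 of 12 were higher and 1 lower, a split that became 2 and 3 with median centering and 3 and 2 with the processed signals. Zap70, the T cell relative of SYK, had 0.32 ± 0.08 (SE, n = 4; adjusted p 0.0211). Yes1, which many tissues express, had −0.26 ± 0.08 (adjusted p 0.0391), and Fyn −0.15 (adjusted p 0.0753). Among the other adaptors, exchange factors and effectors 5 of 20 were higher and 1 lower (5 and 3 with the processed signals). Rac2, the RAC protein of blood cells on which VAV1 acts, had 1.12 ± 0.08 (adjusted p 4.17e-06) and Skap2, an adaptor of macrophages, 0.61 ± 0.08 (adjusted p 0.000318). Cblb, a ubiquitin ligase that limits the pathway, had −0.22 ± 0.06 (adjusted p 0.0371), and the phospholipase gene Plcg1 −0.15 (adjusted p 0.175). Among the other ITIM receptors and inhibitors 7 of 20 were higher and 1 lower (7 and 3 with the processed signals). Cd72, an ITIM receptor, had 1.42 ± 0.06 (adjusted p 1.99e-07) and was well above background on no WT array. Inpp5d, the lipid phosphatase SHIP-1, had 1.02 ± 0.16 (adjusted p 0.00153). Ubash3b, a phosphatase that acts on SYK family kinases, had −0.31 ± 0.06 (adjusted p 0.00582) and Clec4a2 −0.24 (adjusted p 0.0584). Under BK and under HOE-140 none of the 68 genes passed the adjusted test, with medians of 0.03 and −0.02 (0.06 and 0.03 with median centering).

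**Figure D4:**
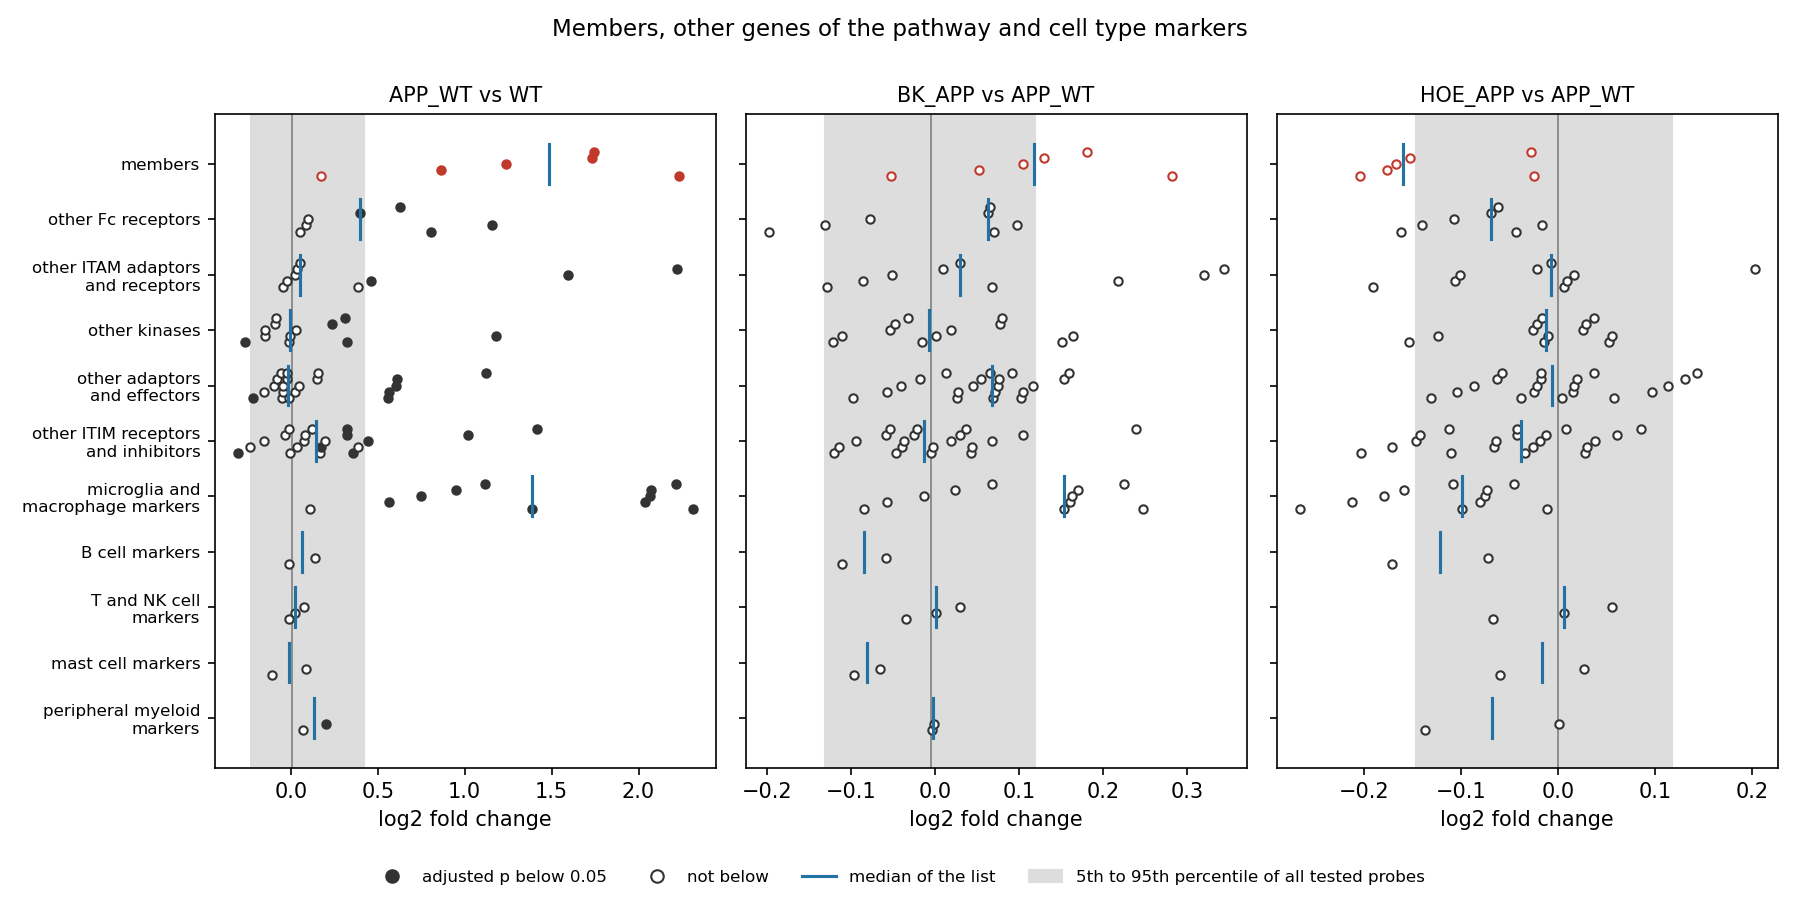
Log2 fold change (horizontal axis) of each tested gene in the members (red), the 5 other pathway lists and 5 lists of immune cell markers (vertical axis), with a panel and axis range for each comparison. Filled points have an adjusted p below 0.05, blue lines are list medians and the grey band spans the 5th to the 95th percentile of all tested probes. In APP_WT versus WT 5 of the 6 members and 10 of the 11 microglia and macrophage markers are filled, and in the other panels no point is.

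Markers of microglia and macrophages moved with the members. In APP_WT versus WT 10 of the 11 tested markers were higher, all but Itgam (0.11), with a median log2 fold change of 1.39 and medians of 1.22 to 1.47 on single arrays. Of all tested probes 11.6% were called higher and 7.00% lower. Adgre1 and Laptm5 were well above background on no WT array, Tmem119 on 1, and Cx3cr1 and C1qa on 2. These markers entered the test through the APPswe/PS1dE9 cells only, so the count describes the list and does not speak for it. Their summed level, in linear intensity, was 13280 to 17420 in APP_WT and 9566 to 11760 in WT, and that of the 6 members 1638 to 2132 and 599.4 to 712.4. P2ry12, Spi1 and Mrc1 did not pass the filter, and Cd68 had no named probe. In a bulk sample more cells of this type and more RNA per cell cannot be told apart, and the part of these markers in the members' values was not tested. Under BK the markers had a median of 0.15 (−0.02 to 0.24 on single arrays) and under HOE-140 of −0.10 (−0.18 to −0.02), where the members had 0.12 and −0.16. These medians moved with the scaling. With median centering they were 0.20 and −0.01 for the markers and 0.16 and −0.09 for the members.

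Markers of other cell types were followed as well. No tested marker of B cells (2 of 8), of T and NK cells (3 of 9) or of mast cells (2 of 8) was called in any comparison, although 1 mast cell marker was called lower in APP_WT than in WT with the processed signals and with the deposited ratios. Of peripheral monocyte and neutrophil markers 2 were tested and 1, Camp, was higher by 0.20. Astrocyte markers were higher in 6 of 7 cases, with a median of 0.43, and in 3 of 7 with median centering. All 8 markers of neurons passed the filter, as did all 7 of astrocytes, 8 of the oligodendrocyte lineage and 7 of neural progenitors. Of the neuronal markers 3 were higher and 2 lower in APP_WT than in WT, from −0.54 for Dcx to 0.43 for Syt1 (1 and 3 with median centering). Of the progenitor markers 3 were higher and 2 lower, from −0.63 for Hes5 to 0.97 for Vim (3 and 4 with median centering, 2 and 3 with the processed signals). The oligodendrocyte lineage had 1 marker higher and 1 lower (1 and 2 with median centering), and endothelial cells had 1 of 4 tested markers higher. The part of the other cell types in the members' values was not tested.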

How the data were processed

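Differentiated neurospheres in 4 conditions were compared on 12 2-color Agilent SurePrint G3 arrays, 4 for each of 3 comparisons, grouped by the sample labels. For each array the authors deposited scanner output with raw spot and local background intensities, and with processed intensities after background subtraction and dye normalization by the software (Feature Extraction 11.0.1.1 per the file headers). Their deposited log10 ratio, formed from the processed signals, was not used. Log2 ratios of each array were deposited as well, with medians from −0.155 to 0.036. They followed the scanner log ratios, turned to the directions used here, with r of at least 0.9986. On the HOE_APP arrays too r was positive in the likely direction. The normalization behind them is not given in the sources used here. Their values lay close to those of the processed signals, with member medians in APP_WT versus WT of 2.918 and 2.919. These settings are therefore not separate checks of each other.

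With limma 3.58.1 (R 4.3.3, with version 1.17.8 of data.table) the median signals were background-corrected by normexp (offset 50) and the log2 ratios normalized by loess (span 0.3). Control spots (3671 of 62976) were left out and the spots of a probe averaged. All ratios have the treated sample, or APP_WT in the comparison with WT, as the numerator. RefSeq identifiers named 27509 of 29150 probes through a RefSeq table (GRCm38.p6), used for names, gene order and promoter windows. The array design uses another build. Of 29361 expressed probes 461 had a missing value on some array, none of a member, and 29357 could be fitted. One model over 12 arrays estimated the mean and the dye effect of every comparison (6 residual and 4.56 prior degrees of freedom). The p-values, all two-sided, were adjusted (Benjamini-Hochberg) over the 29357 probes, with a threshold of 0.05. Levels are log2 intensities after loess and Aquantile, open to dye bias that the swaps balance. The number of arrays limits the precision, and the steps were tested on simulated data.

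The members and lists were chosen with earlier results of these data known. Named are all members with each probe and, from each pathway list, the 2 genes with the largest and the 2 with the smallest log2 fold change in APP_WT versus WT, a gene being represented by its brightest expressed probe. Where fewer genes of a list are named, the rest are not reported here by name. The markers named because they did not pass the filter, or passed it through the APPswe/PS1dE9 cells only, and Itgam, Camp, Dcx, Syt1, Hes5 and Vim, are named outside this rule. Protein motifs were not analysed here. Replicate numbers come from the sample titles and are also positions on the slide. Deviations of BK_APP and HOE_APP arrays of the same number correlated with r of 0.516 to 0.675, which was taken as pairing, and those of APP_WT versus WT with either of them with −0.301 to −0.601, where APP_WT stands on opposite sides of the ratio. The alternatives were other normalizations and background corrections, the deposited ratios, other filters and models, SAM with rank products, unadjusted p-values, the turned HOE_APP sign and each replicate left out. The App probe, which had a log2 fold change of 0.12 (adjusted p 0.0925) in APP_WT versus WT, does not check the transgene, as its target stretch was not analysed here.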

Additional observations from a re-analysis of the deposited data

Results flagged for a closer look

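For each of the 12 member probes in each of the 3 comparisons, the highest and the lowest array were set against the others (Dixon's test at its 95% critical value for 4 arrays). Of the 36 sets of 4 arrays 2 had an array far from the rest, and chance gives about 1 in 20. Vav1 (A_55_P2036567) in APP_WT versus WT had its highest log2 ratio, 1.35, on replicate 4, where the nearest array had 1.21 and the gap took up 0.843 of the range. Without replicate 4 its log2 fold change stayed at 1.20, the lowest value with 1 replicate left out. Lilrb4a (A_51_P241457) in HOE_APP versus APP_WT had its lowest log2 ratio, −0.20, on replicate 4, where the nearest array had 0.02 and the gap took up 0.926 of the range. This probe was too dim to be tested.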

How the results depend on the processing

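In APP_WT versus WT Fcer1g, Blnk, Vav1, Ptpn6 and Lilrb4a, 5 of the 6 tested member genes, were called under every alternative that was run, and Syk at an unadjusted p only. The number of called probes, 5446, fell to 1834 when the comparisons were fitted one by one and the dye was left out of the model and to 3530 with SAM and rank products, was 9336 at an unadjusted p below 0.05, and lay between 3028 and 4398 with 1 replicate left out (3028 without replicate 2, 3495 without 3 and 3450 without 4). The 0 called probes of BK_APP versus APP_WT became 535 with SAM and rank products, 1310 unadjusted and 0 to 43 with 1 replicate left out (43 without replicate 1), those of HOE_APP versus APP_WT 677, 1475 and 0 to 4 (4 without replicate 4), and those of BK_APP minus HOE_APP 733 unadjusted and 0 to 1 (1 without replicate 1 or 2). Among member genes 2 were called for BK_APP with SAM and rank products and 2 unadjusted, 2 for HOE_APP unadjusted and 3 for the difference unadjusted. With the replicate number as a block the called probes were 5373 in APP_WT versus WT and 0 in the others, with 5 and 0 member genes. Neither the block nor the pairing of the treated arrays (0 called probes, a fit added after the data were seen) changed a call of a member gene. The block takes 1 correlation for all comparisons, −0.15, and cannot hold positive and negative correlations at once, so its outcome does not test the pairing.

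Among the tested member probes, signs changed only for values under the treatments and their difference whose adjusted test was not passed. With median centering Vav1 (A_55_P2036567) became 0.0016 under BK and Lilrb4a 0.0243 under HOE-140. With the opposite sign of the HOE_APP arrays, the values under HOE-140 became 0.15 for Fcer1g, 0.028 for Syk, 0.17 for Blnk, 0.20 and 0.034 for the Vav1 probes, 0.18 for Ptpn6 and 0.0254 for Lilrb4a, and the difference became −0.0479 for Fcer1g, −0.26 for Vav1 (A_55_P2036567) and −0.0464 for Ptpn6. With 1 replicate left out, the values under BK ranged from −0.0132 to 0.22 for Fcer1g, from −0.17 to 0.0645 for Vav1 (A_55_P2036567) and from −0.0147 to 0.15 for its other probe, those under HOE-140 from −0.10 to 0.0474 for Syk and from −0.14 to 0.0675 for Vav1 (A_51_P154780), and the difference for Syk from −0.04 to 0.20. The cause of these changes was not tested. Without the filter Fcgr2b and the dim Lilrb4a probe would pass in APP_WT versus WT. With the processed signals the probes too dim to be tested had 1.31 for Lyn, 1.26 for Fcgr1, 1.41 for Lilrb4a (A_51_P241457), 0.43 for Fcgr2b and −0.0567 for Fcgr3, and signal over background is the limit there. No setting shifted the median of all probes by more than 0.1.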
